A study of Mus musculus with 75 samples.

Results

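The comparison described here is that of the Gad2-Cre line after 3 h of light against the same line kept in the dark, 6 libraries of the 75 samples of the series. The libraries were chosen by their labels alone, as Cre line, housing and light exposure, and no measured value entered the choice. All mice were C57BL/6, 8 weeks old, and heterozygous both for the Cre allele and for Rpl22-HA (RiboTag), so the controls carry the same alleles as the light-exposed animals. The control group was taken from complete darkness, and the other group had 3 h of light after the same housing in the dark. Each group has 3 replicates, and each replicate pooled the visual cortices of 3 mice. The series holds 5 Cre lines (Emx, Gad2, Sst, Vip and Pv) in 5 conditions, which are dark, light for 1, 3 or 7.5 h, and standard housing.

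RiboTag mice carry an HA tag on a ribosomal protein in cells that express Cre, and ribosome-bound RNA is pulled down with the tag from whole tissue. Gad2 encodes a glutamate decarboxylase that makes GABA, and Gad2-Cre marks cortical inhibitory neurons of many classes, among them the parvalbumin, somatostatin and VIP neurons, so each value is a sum over classes. Neurons that are excited after a quiet period switch on immediate early genes, which encode transcription factors such as Fos, Egr and Npas4, and a later set of genes for synaptic, secreted and signalling proteins follows. In such bulk samples, fewer cells of a type and less RNA per cell cannot be told apart. The question addressed is which genes light changes in inhibitory neurons as a whole at a time between the first and the late response.

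Levels are given as normalized read counts, the deposited signal, which for most genes behaves as a gene read count divided by 1 factor per library. Gene reads numbered 52.3, 37.9 and 23.4 M in dark replicates 1, 2 and 3, and 34.7, 46.5 and 19.4 M in the 3 h replicates. Replicate 3 at 3 h had 254 genes at 0, against 71 to 120 in the other 5 libraries. Gad2 itself stood at 39742 to 46042 in the dark and 45261 to 53703 at 3 h, against 274 to 640.1 in the Emx libraries of the same conditions, a line that marks excitatory neurons. The excitatory transporter gene Slc17a7 had the opposite order, with 835.8 to 1321 in the Gad2 line and 18464 to 26699 in the Emx line. Microglia markers were detected in the Gad2 libraries, with the levels given below.

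A gene was called when its adjusted p was under 0.05 (limma on log2 of the count plus 1, two-sided, Benjamini-Hochberg over 14223 genes). At this threshold 18 genes were called, 0.127% of those tested, and all 18 were higher after light. No gene was called lower by limma, and 632 genes had an unadjusted p under 0.05 in either direction. The replicate numbers pair the libraries of the 2 conditions in their values, although the labels do not say what a number marks, and the fit with the number as a block called 443 genes (3.11%). Of these, 338 were higher (2.38%) and 105 lower (0.738%), and the 18 genes were among the 338. The block lowered the median standard error from 0.22 to 0.12 on the log2 scale. All 443 genes moved the same way in each of the 3 same-numbered pairs. The blocked fit calls genes on these same pair differences, so this adds no separate support. The median log2 change was 0.34 for the higher and -0.43 for the lower ones. Only 29 of them were at least 2-fold higher and 22 at least 2-fold lower. In the sentences below a gene "rose" or "fell" where it was called, and a call that the block alone gave is marked as such. Both fits also held the libraries of the Gad2 line at the other light times and in standard housing. Their p-values therefore measure the spread between pooled samples over all these conditions, and not only within the groups compared.

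The AP-1 factors, which bind DNA as pairs of Fos and Jun proteins, held the largest rises. Fosb stood at 101, 115 and 55.6 in dark replicates 1, 2 and 3 and at 1845, 1342 and 1752 after 3 h. The 2 groups lay far apart, and the fold was 18.7 (log2 4.22, SE 0.32, adjusted p = 4.87e-05). Fos read 106, 164 and 106 in the dark and 933, 903 and 1201 after light, an 8.13-fold rise (adjusted p = 0.000111). Fosl2, a Fos-related factor, went from 1101, 1198 and 925 to 8493, 5299 and 6236, a 6.12-fold rise (adjusted p = 0.00051). The groups did not overlap for any of these 3 genes. Junb, a Jun partner, was at 122 to 173 in the dark and 207 to 285 after light without being called (adjusted p = 0.997, 0.335 with the block). The other 2 Jun genes went down in the blocked fit. Jun read 912, 1052 and 935 in the dark and 721, 734 and 755 after light, 1.31-fold lower (adjusted p = 0.788, 0.00748 with the block), and Jund was 1.25-fold lower (adjusted p = 1.0, 0.0086 with the block). Neither was called lower without number 2, and 1 of them was without number 3. Fosl1 was at 0 in all 3 dark libraries and at 13.2, 3.99 and 0 after light, too low to give a fold.

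The Egr factors are zinc finger proteins, and the Nab corepressors bind them and limit their activity. Egr3 stood at 460.2, 599.9 and 574 in the dark and at 3158, 2260.3 and 2736 after 3 h, a 4.97-fold rise (adjusted p = 8.04e-05). Nab2 rose 2.80-fold, from 565, 664 and 501 to 1730.0, 1587 and 1502 (adjusted p = 0.00051). All 6 members of the list had their 3 light libraries above their 3 dark ones, where 4.04% of all tested genes did. Members of the gene lists, here and below, were chosen with earlier results of these data known, so such counts are no test. Egr4 rose 2.84-fold (adjusted p = 0.0814, 8.99e-05 with the block) and Nab1 1.54-fold (adjusted p = 0.3, 0.000404 with the block). Egr1 was 1602, 2370.0 and 1181 in the dark and 5425, 4157 and 4699.8 after light, without being called in either fit (log2 1.52, adjusted p = 0.13, 0.0633 with the block). Egr2 reached 107, 46.2 and 81.2 from 20.2, 42.1 and 13.4, also uncalled (adjusted p = 0.495, 0.121 with the block). Among the Nr4a orphan nuclear receptors, Nr4a2 rose 2.60-fold (adjusted p = 0.0814, 3.18e-06 with the block) and Nr4a3 2.48-fold (adjusted p = 0.607, 0.00204 with the block). Nr4a1 was 2.41-fold higher, from 226, 404 and 195 in the dark to 845, 540 and 554 after light. Its groups did not overlap, but it was called in neither fit (adjusted p = 0.92, 0.213 with the block). The same fits hold its 7.5 h replicates, which spread widely at 2347, 635 and 641.

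**Figure D1:**
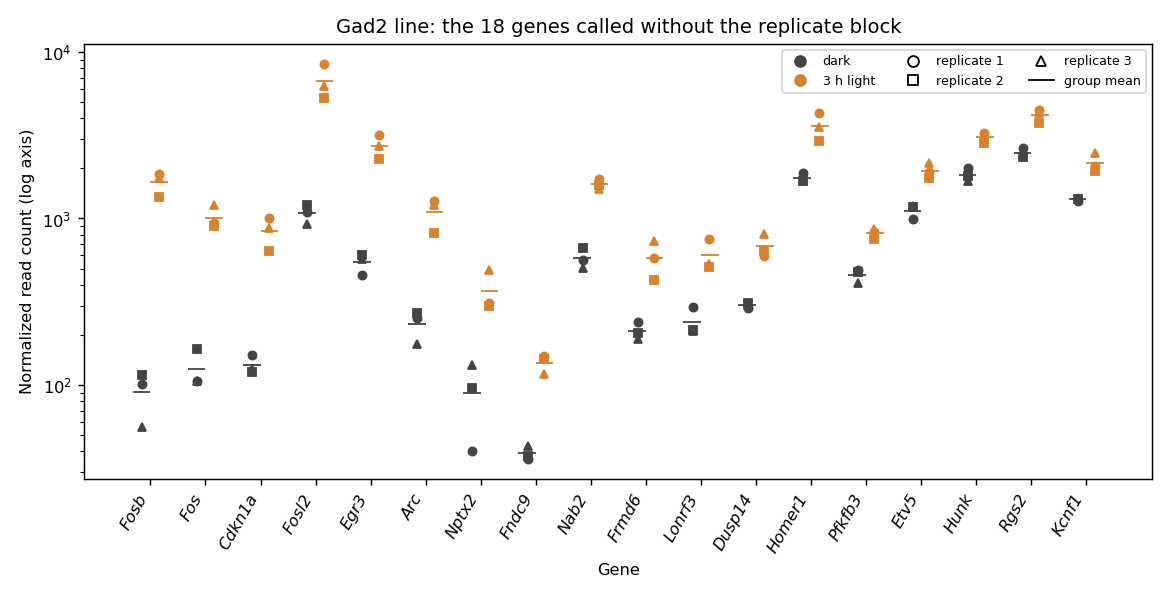
Normalized read counts (log axis) of the 18 genes called without the replicate block, in the 3 dark libraries (dark grey) and the 3 libraries after 3 h of light (orange). Circles, squares and triangles are replicates 1, 2 and 3 and bars are group means. For each of the 18 genes the 3 light libraries lie above the 3 dark ones.

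Promoter letters are shown for 5 of these genes because they hold the short site TGACG, the core of the element that CREB proteins bind in many activity-induced promoters. The letters are those of RefSeq (GRCm38.p6), matched by gene symbol, while the submitters' processing notes name mm9. Each line holds the 250 bases before the gene's start, 5′ to 3′ on the gene's strand. Homer1 has another start, not shown, whose 250 bases hold no such site. Capitals mark TGACG or its reverse complement CGTCA, and in Fosb also the Egr motif GCGGGGGCG.
Fos, chr12:85473640-85473889, plus strand: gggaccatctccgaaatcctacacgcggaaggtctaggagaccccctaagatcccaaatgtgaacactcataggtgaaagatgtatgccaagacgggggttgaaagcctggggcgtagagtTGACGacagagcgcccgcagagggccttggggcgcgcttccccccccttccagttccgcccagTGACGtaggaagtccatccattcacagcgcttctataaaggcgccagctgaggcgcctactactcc
Fosb, chr7:19310046-19310295, minus strand: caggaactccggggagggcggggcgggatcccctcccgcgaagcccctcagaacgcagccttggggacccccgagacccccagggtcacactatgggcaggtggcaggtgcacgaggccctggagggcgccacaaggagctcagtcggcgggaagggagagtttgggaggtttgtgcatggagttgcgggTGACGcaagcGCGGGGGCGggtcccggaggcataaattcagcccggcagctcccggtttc
Homer1, chr13:93303507-93303756, plus strand: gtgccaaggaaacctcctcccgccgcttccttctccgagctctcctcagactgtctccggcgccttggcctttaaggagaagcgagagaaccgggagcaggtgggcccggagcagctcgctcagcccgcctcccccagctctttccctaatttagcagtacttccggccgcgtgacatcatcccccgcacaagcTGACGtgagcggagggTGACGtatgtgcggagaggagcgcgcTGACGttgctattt
Rgs2, chr1:144004150-144004399, minus strand: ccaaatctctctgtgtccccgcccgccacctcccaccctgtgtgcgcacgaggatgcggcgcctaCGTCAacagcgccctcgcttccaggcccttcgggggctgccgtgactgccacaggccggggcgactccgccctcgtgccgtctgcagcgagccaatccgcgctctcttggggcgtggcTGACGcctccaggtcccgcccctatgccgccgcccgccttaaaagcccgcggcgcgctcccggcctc
Fndc9, chr11:46235307-46235556, plus strand: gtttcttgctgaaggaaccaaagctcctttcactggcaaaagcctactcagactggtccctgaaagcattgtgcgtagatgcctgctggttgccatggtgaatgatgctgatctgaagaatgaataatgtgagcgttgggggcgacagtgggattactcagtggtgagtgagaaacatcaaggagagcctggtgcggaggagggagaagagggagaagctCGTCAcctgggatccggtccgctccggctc
The short site starts 129 and 66 bases before the start of Fos, 60 before that of Fosb and 56, 40 and 14 before the shown start of Homer1. It was found in 6 of the 15 called genes with a promoter in the table (40%), on either strand and allowing overlap with other motifs. The same short site stood in 30.0% of the promoters of 10600 tested genes, in 41.9% of 270 promoters of genes higher with the block and in 18.1% of 72 promoters of genes lower with the block. The full element TGACGTCA was in none of the 15 and in 3.07% of all, and the AP-1 motif TGACTCA in none and in 3.87%. Of the Egr motifs, GCGGGGGCG was in 2 of the 15 (Fosb and Fosl2) against 5.79% of all, and GCGTGGGCG in 1 (Frmd6) against 1.19%. A CArG box, the site of SRF, was in none of the 15 and in 1.42% of all. Bases farther upstream than these 250 were not searched. Egr3, Arc and Nptx2 were the called genes without promoter letters. A match, or the lack of one, describes these letters only.

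Of the other inducible factors, all 16 listed members had a positive log2 change, with a median of 0.37, where the median of all genes was -0.00327, but 1 was called without the block and 3 with it (3, 2 and 1 when number 1, 2 or 3 was left out). Etv5, an ETS factor induced by growth factor signalling, was at 990, 1167 and 1190.1 in the dark and 1906, 1738 and 2159 after light, a 1.73-fold rise (adjusted p = 0.0209) whose call was lost in 5 of the 6 fits that left out 1 library and in the fit of the 2 groups alone (adjusted p = 0.286). Npas4, a factor induced by calcium entry into active neurons, read 62.4, 38.7 and 53.8 in the dark and 227, 219 and 276 after light. The 4.66-fold difference was called with the block alone (adjusted p = 0.0814, 0.0128 with the block). Crem, a repressor of the CREB family, rose 1.53-fold (adjusted p = 0.997, 0.00358 with the block). Atf3, Klf4, Maff and Ier2 stayed uncalled in both fits, with overlapping groups.

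Of 19 feedback regulators of kinase and G protein signalling, all were above 0 in log2 change, with a median of 0.53, and 2 were called without and 12 with the block. As background for this and the other lists, 0.127% of all tested genes were called higher without and 2.38% with the block. The median log2 change of all genes was -0.00327. Dusp14, a phosphatase that acts on MAP kinases, had 291, 311 and 303 in the dark against 599, 637 and 804 after light, a 2.23-fold rise (adjusted p = 0.00187). Rgs2, which speeds the inactivation of G proteins, was at 2651, 2344 and 2429 and then 4452, 3750 and 4299, 1.68-fold up (adjusted p = 0.00299). Rasl11a, a small GTPase, rose 2.21-fold (adjusted p = 0.226, 0.00184 with the block) and Dusp4 1.86-fold (adjusted p = 0.306, 8.86e-05 with the block). Spry2, Spry4, Spred2 and Errfi1, inhibitors of receptor tyrosine kinase signalling, rose by 1.21 to 1.38-fold with the block alone. Leaving out number 1, 2 or 3 gave 7, 10 and 7 called members in this list.

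Synaptic effectors divided into 4 members called with the block and 12 that were not, where 2.38% of all tested genes were called higher. Arc, which acts in AMPA receptor removal, went from 251, 271 and 177 to 1268, 817 and 1211, a 4.69-fold rise (adjusted p = 0.0247). Nptx2, a secreted pentraxin that gathers AMPA receptors, went from 40.1, 95.9 and 132 to 309.9, 296 and 491, a 4.42-fold rise (adjusted p = 0.0209). Homer1, a scaffold of the postsynaptic density, was at 1877, 1688 and 1697 in the dark and 4289.6, 2921 and 3565 after light, 2.02-fold up (adjusted p = 0.0165). The counts do not separate its short activity-induced isoform from the long one. Lingo1, a membrane protein, rose 1.42-fold with the block alone (adjusted p = 0.618, 4.23e-06 with the block). Leaving out a single library ended the call of Arc in 5 of 6 cases and those of Nptx2 and Homer1 in 4 of 6, with an adjusted p of at most 0.2. Nptx2 and Homer1 were also not called in the fit of the 2 groups alone. With the block, Arc was not called without number 1 or without number 3, and Nptx2 was not called without number 2.

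Other called genes came from several classes. Cdkn1a, the cell cycle inhibitor p21, rose 6.24-fold, from 151, 120.0 and 125 to 1001, 641 and 874 (adjusted p = 0.00013). In its list of growth arrest genes Gadd45b (1.85-fold) and Gadd45g (1.60-fold) were the other members called, both with the block alone (adjusted p = 0.495 and 0.948, 0.013 and 0.0203 with the block), of 13 members. Without number 3 the block called 1 member of this list. Fndc9, a fibronectin type III domain protein, was at 35.9, 37.6 and 43.0 in the dark and 148, 144 and 117 after light, 3.44-fold up (adjusted p = 0.00054). Frmd6, a FERM domain protein, rose 2.68-fold (adjusted p = 0.0088) and Lonrf3, a RING finger protein, 2.50-fold (adjusted p = 0.046). Pfkfb3, an enzyme that drives glycolysis, rose 1.78-fold (adjusted p = 0.0448), Hunk, a kinase, 1.69-fold (adjusted p = 0.0088), and Kcnf1, a modifying potassium channel subunit, 1.64-fold (adjusted p = 0.046). Kcnf1, Lonrf3 and Pfkfb3 lost their call in each of the 6 fits that left out 1 library, whereas Cdkn1a, Dusp14, Egr3, Fndc9, Fos, Fosb, Fosl2, Nab2 and Rgs2 kept it in all 6. Frmd6 and Hunk lost theirs in 4 of the 6. Kcnf1 was also not called with median-of-ratios scaling. In the fit of the 2 groups alone Dusp14, Fndc9 and Rgs2 were not called (adjusted p = 0.115, 0.0699 and 0.238), and Fos was not called with the block without number 3 (adjusted p = 0.0668). Etv5, Frmd6, Homer1, Hunk, Kcnf1, Lonrf3, Nptx2 and Pfkfb3 were likewise not called in the fit of the 2 groups alone.

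Among secreted factors none was called without the block. With it 11 of 19 were, all higher, against 2.38% of all tested genes, and the list median was 0.42. Leaving out number 1, 2 or 3 gave 7, 10 and 7. Bdnf, a neurotrophin, read 52.7, 41.5 and 54.7 in the dark and 143, 111 and 114 after light, 2.44-fold up (adjusted p = 0.306, 0.000911 with the block). Inhba, a subunit of activin, rose 2.46-fold from a low level (adjusted p = 0.755, 0.0221 with the block). Igf1, a growth factor, stood at 2954, 2559 and 2419 and then at 4446, 3598 and 3971, 1.51-fold up in all 3 pairs (adjusted p = 0.191, 6.33e-07 with the block). Pcsk1, which cleaves prohormones, rose 2.28-fold (adjusted p = 0.196, 0.000103 with the block), and Vgf, a neuropeptide precursor, 1.69-fold (adjusted p = 0.552, 0.0203 with the block). Of 14 interneuron neuropeptides 5 rose with the block (Vip, Tac1, Crh, Penk and Pnoc), by 1.21 to 1.75-fold, and 3, 4 and 2 did when number 1, 2 or 3 was left out. Crh, the stress peptide also made by VIP neurons, led them at 384, 421 and 509 against 640.1, 685 and 1017. Sst, the somatostatin gene, was at 42824 to 51363 in the dark and 43969 to 50117 after light, and Pvalb at 5839 to 13938 and 5793 to 15840, neither of them called. Pvalb levels differed more between replicate numbers than between conditions.

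**Figure D2:**
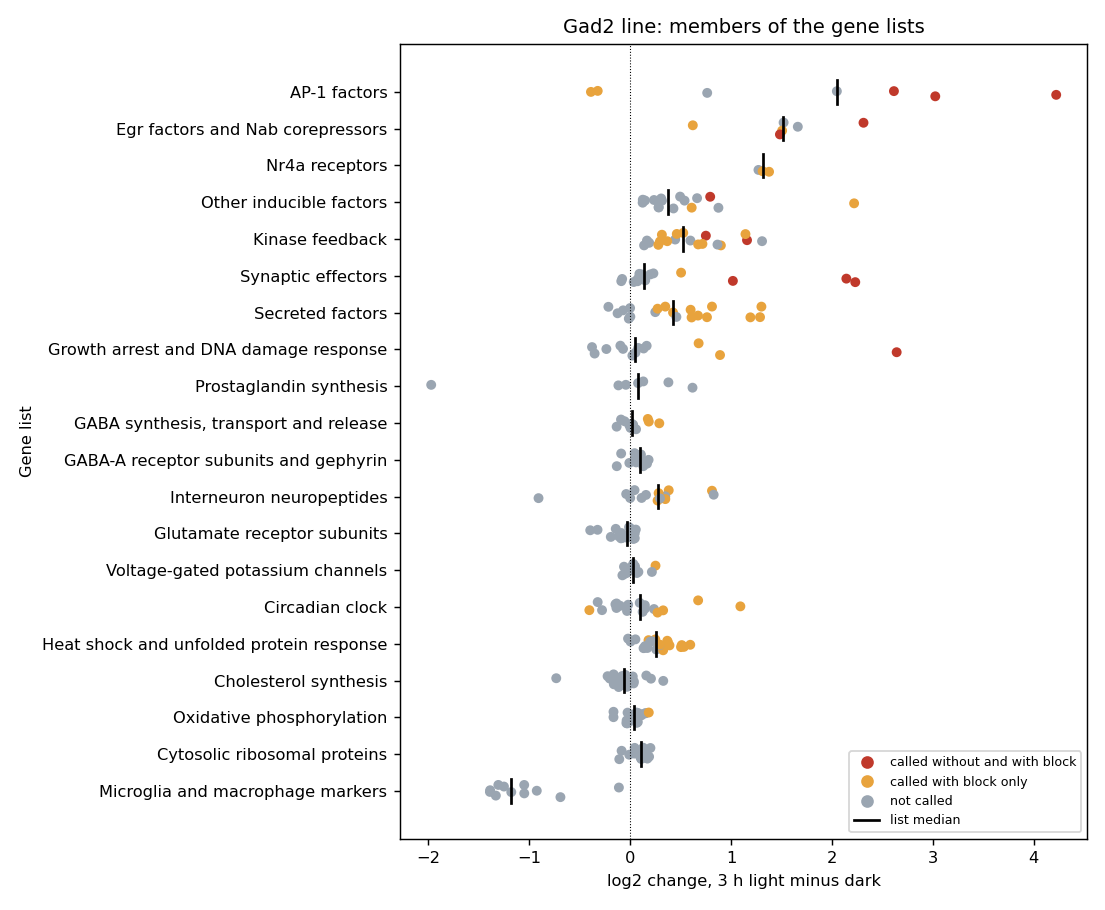
Each point is 1 member of a gene list, placed by its log2 change at 3 h of light minus dark. Red points were called without and with the block, orange with the block alone, grey in neither, and black lines mark list medians. The AP-1 member Fosb lies farthest to the right at 4.22, and the 11 microglia and macrophage markers all lie left of 0.

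Genes of GABA handling changed little. Gad1 and Gad2, which make GABA, were 1.14 and 1.13-fold higher and called with the block alone (adjusted p = 1.0 for both, 0.00272 with the block), and Slc38a2, an amino acid transporter that supplies glutamine, was 1.22-fold higher (adjusted p = 1.0, 0.00113 with the block). The other 8 members of that list, all 15 GABA-A receptor and gephyrin genes and all 20 glutamate receptor genes were uncalled in both fits. In the GABA handling list 3, 3 and 1 members were called with the block when number 1, 2 or 3 was left out. Of 19 listed voltage-gated potassium channel genes, which do not include the called gene Kcnf1, Kcna1 alone was called, 1.19-fold higher, with the block (adjusted p = 1.0, 0.000551 with the block).

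Of 19 clock genes 4 were called higher and 1 lower, with the block alone (3, 3 and 2 higher when number 1, 2 or 3 was left out, and 1 lower in each case). With the block 2.38% of all tested genes were called higher and 0.738% lower. Per2, a clock repressor that light induces in the brain's pacemaker, was at 265, 207 and 189 in the dark and 585, 409 and 424 after light, 2.13-fold up (adjusted p = 0.0814, 6.33e-07 with the block). Cry1, its partner, rose 1.59-fold (adjusted p = 0.446, 0.000112 with the block), Cry2 1.25-fold and Nr1d2 1.21-fold, while the repressor Nr1d1 was 1.32-fold lower (adjusted p = 1.0, 7.4e-05 with the block). Of 23 heat shock and unfolded protein response genes 12 rose with the block, with a median of 0.26 over the list. Xbp1, a factor of the unfolded protein response, had 2007, 2001 and 1994 in the dark and 2948, 2862 and 2872 after light, 1.45-fold up (adjusted p = 0.119, 9.56e-06 with the block). Hspa5, the chaperone BiP, was at 4556, 4531.5 and 4594 and then at 6723, 6283 and 6398, 1.42-fold up (adjusted p = 0.335, 0.0474 with the block). Leaving out number 1, 2 or 3 gave 7, 6 and 2 called members in this list. Cholesterol synthesis, prostaglandin synthesis and ribosomal protein genes had no member called in either fit, and of 23 oxidative phosphorylation genes Atp5j alone was called, with the block (1.14-fold, adjusted p = 1.0, 0.0116 with the block). The call of Atp5j was lost when any of the 3 numbers was left out, and its log2 change was -0.077 without dark replicate 1 and -0.033 without light replicate 3.

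Genes lower after light were called with the block alone, and the 10 described here had the largest falls among those with a mean of at least 50. P2ry13, a receptor for ADP found on microglia, read 189, 143 and 220.4 in the dark and 91.2, 73.4 and 28.9 after light, 3.09-fold lower (adjusted p = 0.204, 0.0091 with the block). Nckap1l, an actin regulator of blood cells, was 3.14-fold lower at 126, 118 and 60.0 against 58.6, 31.4 and 14.5 (adjusted p = 0.597, 0.00354 with the block). The inhibitory receptor gene Lair1 was 2.92-fold lower, the actin bundler Lcp1 2.83-fold, Cyth4 2.48-fold, the microglial gene Fcrls 2.34-fold and Cd33 2.15-fold (adjusted p from 0.245 to 0.618, and from 0.00873 to 0.0441 with the block). Sft2d2, Cmtm6 and Wasf2 completed the 10, by 1.82 to 2.04-fold. None of the 10 was called with the block once number 3 was left out (adjusted p from 0.0829 to 0.219), when the fit called 124 genes in all (0.872%), 112 higher and 12 lower. Without number 1 it called 235 (1.65%) and without number 2 it called 233 (1.64%).

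The 11 microglia and macrophage markers are given beside these falls. All 11 had a negative log2 change, with a median of -1.18, and 7 of them had the 3 light libraries below the 3 dark ones, as 4.44% of all tested genes did. None of the 11 was called in either fit. Their summed level was 4100.0, 5165 and 3953 in dark replicates 1, 2 and 3 and 2842, 2863 and 938 after 3 h. The light replicate 3 library was the lowest of the 15 Gad2 libraries, and the sum was 2007 to 3103 at 1 h, 3028 to 4898 at 7.5 h and 2560.2 to 5096 in standard housing. Cx3cr1 was at 470.3, 564 and 394 in the dark and 277, 302 and 81.2 after light, and C1qb at 723, 1004 and 852 and then 418, 544 and 200.3. In the Emx line the same genes stood at 19.8 to 58.6 and at 24.6 to 59.3 over both conditions. The part of these markers in the falls was not tested. Markers of astrocytes, oligodendrocytes and their precursors, and endothelial cells had no member called in either fit, with list medians from -0.13 to 0.01.

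**Figure D3:**
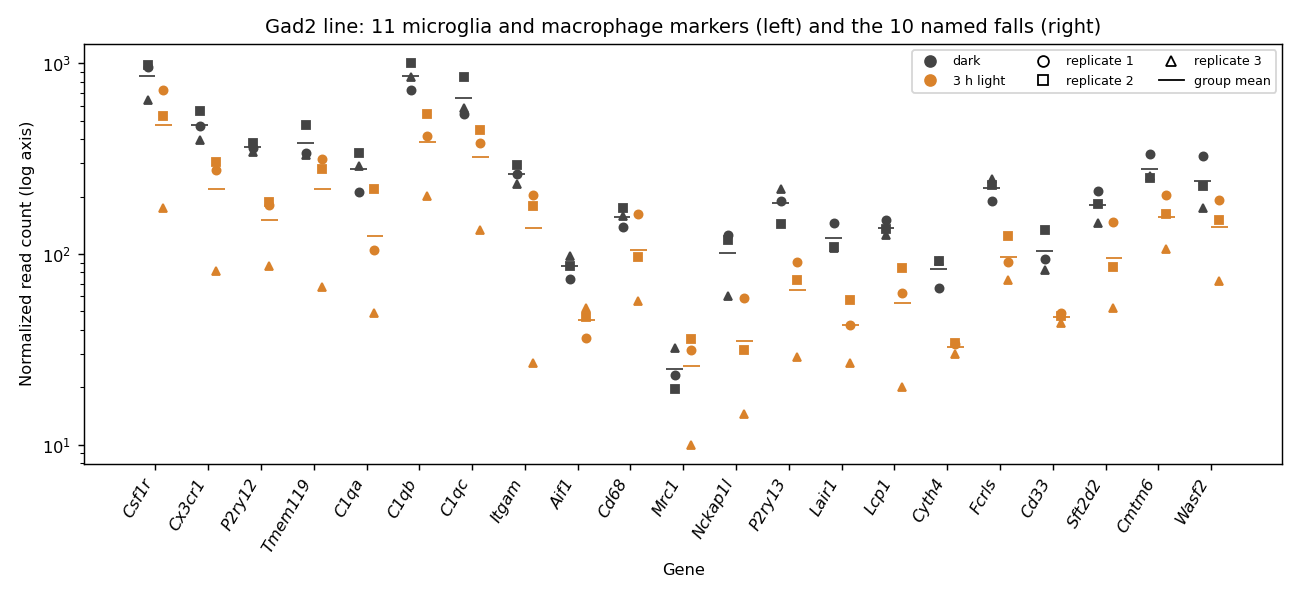
Normalized read counts (log axis) of the 11 microglia and macrophage markers (left) and the 10 genes with the largest falls under the block among those with a mean of at least 50 (right), in dark libraries (dark grey) and after 3 h of light (orange), with symbols for replicates 1, 2 and 3 and bars for group means. Light replicate 3 (orange triangles) is the lowest library for every gene but Aif1, and the other light libraries also lie below the dark ones for most of them.

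The place of the 3 h levels in the time course was read from the same line after 1 and 7.5 h of light. These contrasts share the 3 h libraries with the comparison above and are given as values. Of the 18 genes, 4 had their highest mean at 1 h, 8 at 3 h and 6 at 7.5 h, by the order of means alone. Without the block 2 of the 18 were called higher and 1 lower from 1 h to 3 h, and 1 higher from 3 h to 7.5 h. With the block 7 were called higher and 1 lower in the first step, and 2 higher and 2 lower in the second. Between 1 h and 3 h 12 genes were called (0.0844%), 2 higher (0.0141%) and 10 lower (0.0703%). The block gave 266 (1.87%), 154 of them higher (1.08%) and 112 lower (0.787%). Nr4a1 fell from a mean of 4416 ± 146 to 646 ± 172 (SD, n = 3; log2 -2.80, adjusted p = 0.0489), Npas4 fell from 1491 ± 67.1 to 241 ± 30.7 (log2 -2.63, adjusted p = 0.0489) and Fos fell from 3553 ± 525 to 1012 ± 164 (log2 -1.81, adjusted p = 0.0288). Nr4a3 and Egr2 fell by 2.70 and 2.77 on the log2 scale (adjusted p = 0.0264 and 0.0491). Fits that left out 1 library called 0 to 2 genes in this contrast, of which 0 or 1 were lower. Fndc9 and Hunk were the 2 higher genes, by 1.69 and 0.64 on the log2 scale (adjusted p = 0.00698 and 0.0491).

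Fosl2 and Egr3 were at similar means at 1 h and 3 h, 6917 ± 1753 and 6676 ± 1642 for Fosl2 and 2881 ± 445 and 2718 ± 449 for Egr3, and neither difference was called (adjusted p = 1.0 for both). Cdkn1a went from 311 ± 49.4 at 1 h to 838 ± 183 at 3 h and 1388 ± 316 at 7.5 h, and the first step was called with the block alone (adjusted p = 0.0516, 2.74e-06 with the block). Hunk had its peak at 3 h, 3078 ± 220.3 against 1975 ± 161 at 1 h and 2397 ± 199.6 at 7.5 h, and its later fall was called with the block (adjusted p = 1.0, 0.00129 with the block). Between 3 h and 7.5 h 2 genes were called (0.0141%), and 95 with the block (0.668%), 62 of them higher (0.436%) and 33 lower (0.232%). Fndc9 rose further from 136 ± 17.1 to 488 ± 79.2 (log2 1.83, adjusted p = 0.00141). The other, Zc3h7a, was at 0 in all 9 dark, 1 h and 3 h libraries and present in all 6 libraries of 7.5 h and standard housing, with a mean of 347 ± 32.4 at 7.5 h. It showed the same split of conditions in the PV and VIP lines, and Snap25 showed this split in the Emx and PV lines. For these genes the set of libraries and the light time cannot be told apart. Whether a difference between sets of libraries reaches other genes of the contrast of 7.5 h and 3 h was not tested.

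**Figure D4:**
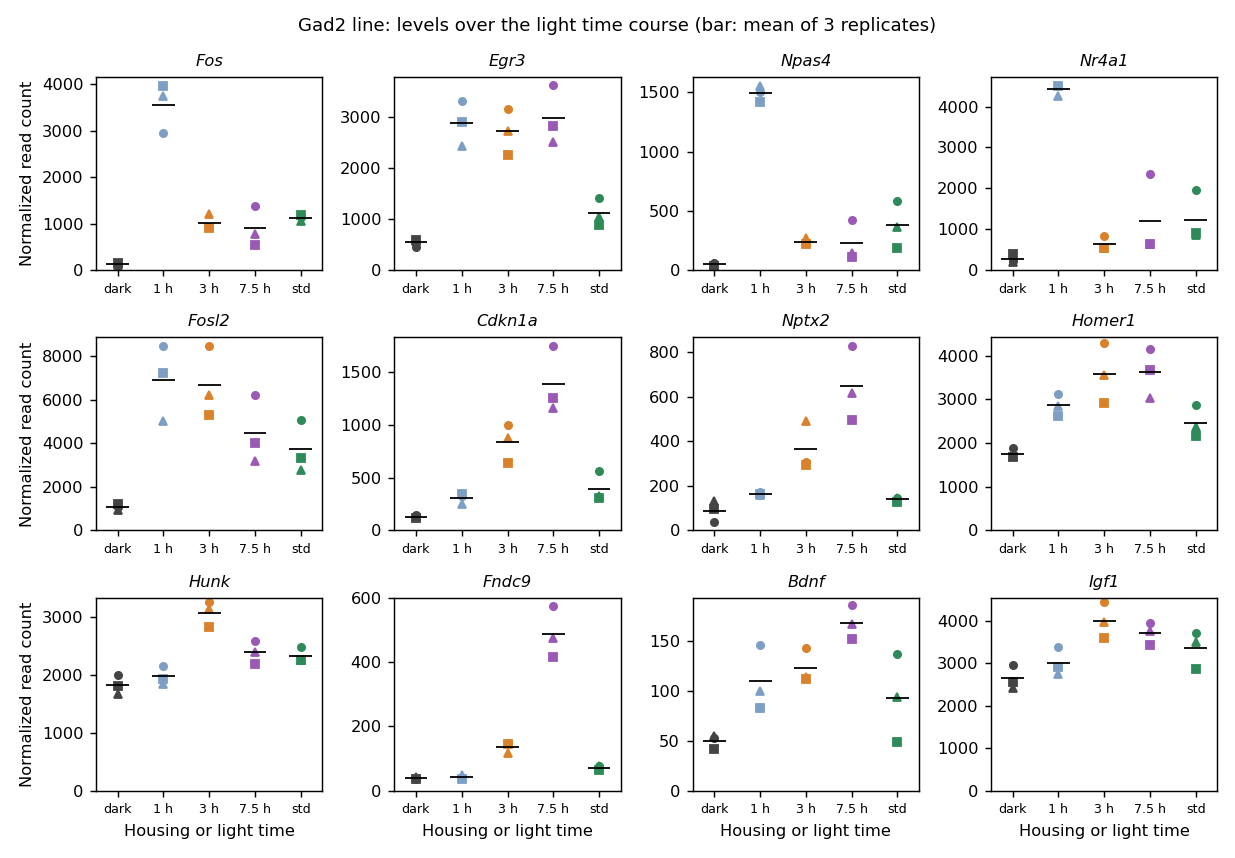
Normalized read counts of 12 genes in the 15 Gad2 libraries, by housing or hours of light, with standard housing as std, symbols for replicates 1 (circle), 2 (square) and 3 (triangle) and bars for means of 3. Fos, Npas4 and Nr4a1 are highest at 1 h and much lower at 3 h, Egr3 and Fosl2 are level between 1 h and 3 h, and Cdkn1a, Nptx2 and Fndc9 have their highest mean at 7.5 h.

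The 3 h response of the Gad2 line was set against that of the Emx line, which marks excitatory neurons, as the interaction of line and light in 1 fit of all 73 libraries. It uses the same 6 Gad2 libraries as the comparison above. Of 14214 genes 6 were called (0.0422%), all with a smaller response in the Gad2 line, and 101 with the block (0.711%), 17 larger (0.12%) and 84 smaller (0.591%). Rnd3, a protein that lowers actin contractility, stood at 1264, 1227 and 1132 in the dark Gad2 libraries and 1102, 1349 and 1025 after light, while in the Emx line it went from 349, 355 and 483 to 1406, 1547 and 1724. The Gad2 groups overlapped and the Emx groups did not (difference of log2 changes -2.05, SE 0.20, adjusted p = 3.54e-10). Ptgs2, the inducible cyclooxygenase, read 68.8, 76.3 and 61.8 and then 180.4, 90.9 and 72.3 in the Gad2 line, against a 9.94-fold change in the Emx line from 288, 193 and 238 to 1883, 2446 and 2849 (difference -2.70, SE 0.43, adjusted p = 0.0004). Cbln2, a secreted synapse organizer, had a 0.99-fold change in the Gad2 line and a 2.85-fold change in the Emx line (difference -1.53, adjusted p = 0.00163). The difference for Sgsm1, a regulator of small GTPases, was -1.07 (adjusted p = 0.0254). Tmem178 and Scg2, named after their values were seen to complete the 6, had differences of -0.94 and -0.90 (adjusted p = 0.00176 and 0.0273).

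**Figure D5:**
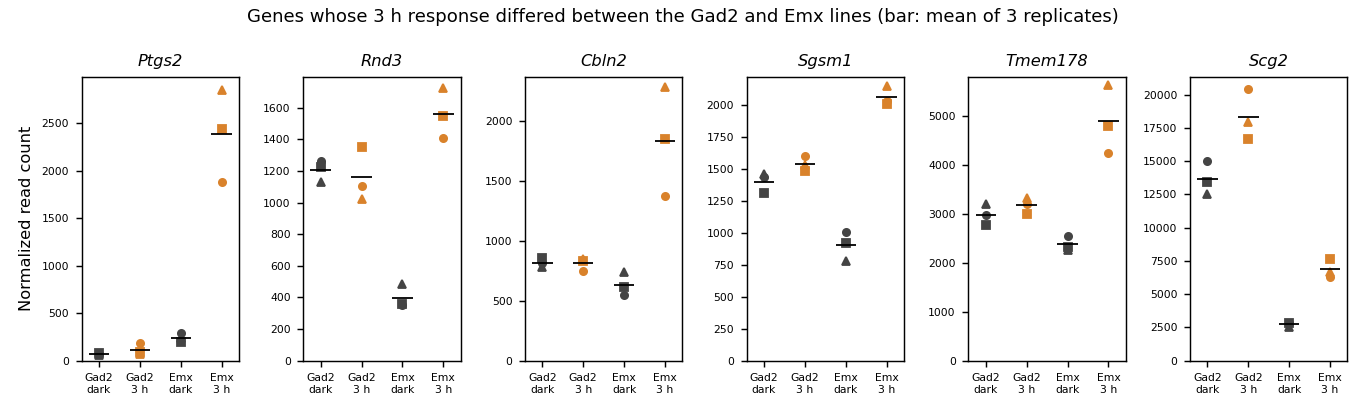
Normalized read counts of the 6 genes whose 3 h response differed between lines, in dark (dark grey) and 3 h light (orange) libraries of the Gad2 and Emx lines, with symbols for replicates 1, 2 and 3 and bars for means. In the Emx line the light libraries lie above the dark ones for all 6 genes, and in the Gad2 line Rnd3, Cbln2, Ptgs2 and Tmem178 overlap between conditions.

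None of the 18 genes was among these 6. With the block 1 of them was called, Homer1, whose rise was smaller in the Gad2 line than in the Emx line (difference -0.98, SE 0.29, adjusted p = 0.598, 0.00834 with the block). Bdnf had a difference of -1.51 in the same direction (SE 0.45, adjusted p = 0.708, 0.0204 with the block). Against the mean response of the PV, SST and VIP lines, which mark 3 classes that the Gad2 line also covers, no gene was called by limma in either fit, and 156 and 544 of 14214 genes had an unadjusted p under 0.05 without and with the block. In that contrast the SST dark group has replicates 1 and 3 only. A p that misses the threshold does not show that the responses are alike. Fos differed by -0.07 (SE 0.40) and Igf1 by 0.08 (SE 0.31) on the log2 scale. Mean Igf1 levels after light were 39.9 in the Emx line, 215 in PV, 2483 in SST, 26665 in VIP and 4005 in the Gad2 line.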

How the data were processed

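Ribosome-bound RNA was purified by its HA tag, amplified by SPIA and sequenced as single-end reads, per the labels' protocols. The deposited table gives a signal per gene and library, whose unit the file does not state. Most low values behave as read counts divided by 1 factor per library. The submitters' processing notes name the genome build mm9 and, with no roles or order, BWA, Cuffdiff 2.2.1, Cuffnorm, Bowtie2 2.1.0.0 and TopHat2 2.0.13. Low values (20 reads or fewer) were multiples of 1 unit per library, within 0.1 read, for 92.9 to 96.4% of genes. Depth, as the total divided by that unit, was 7.28 to 52.3 M in the 73 libraries. Columns of 2 samples were empty, replicate 2 of the SST line in the dark and replicate 2 of that line in standard housing. Of 14284 genes, 23 spelled as dates were dropped.

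Log2(signal + 1) was fitted with limma 3.58.1 (trend, robust, statmod 1.5.0, R 4.3.3) over the 15 Gad2 libraries, or over all 73 for differences between lines. A gene entered a fit if 3 or more of its libraries had a signal of 1 or above. Genes at 0 in 1 library while the median of the line's others was at least 50 reads were set aside (10 in Gad2, 46 over all lines). The cutoff for the whole-multiple share was lowered after 1 library of another line failed it.

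Replicates of a group correlated at 0.963 to 0.982 (log2) and differed far beyond counting error, with chi-square per degree of freedom of 40.6 to 120. To see whether replicate numbers pair the libraries, deviations from group means were correlated over 11632 genes between dark and 3 h libraries. Same numbers gave r = 0.751, 0.351 and 0.778, and different numbers -0.746 to 0.04. The pairing is read from these values, since the labels do not say what a number marks.

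Named genes were the 18 calls, the 10 largest blocked rises and falls (same direction in all pairs, mean at least 50), up to 4 called members of each list, the 4 largest called changes of each other contrast, and a few fixed genes. Members and lists were chosen with earlier results of these data known. The scripts were tested on simulated data that kept the differences between replicate numbers, which the block removes. There the fit without the block recovered far fewer 2-fold changes than the fit with it. That gap was built into the simulation and does not test the pairing. An uncalled gene may still have changed 2-fold. The criterion for recovery was relaxed after a first run missed it. An edgeR test on recovered reads was not run, because the deposited values did not pass the check for whole reads.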

Additional observations from a re-analysis of the deposited data

Results flagged for a closer look

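The genes below are listed because the test of the interaction found a different 3 h response in the Gad2 and Emx lines. The differences of log2 changes, Gad2 minus Emx, were -2.70 for Ptgs2, -2.05 for Rnd3, -1.53 for Cbln2, -1.07 for Sgsm1, -0.94 for Tmem178 and -0.90 for Scg2. Over the other settings tried the adjusted p (limma) reached 0.0113 at most for Rnd3, and 0.0834 for Ptgs2, 0.0892 for Cbln2, 0.156 for Sgsm1, 0.127 for Tmem178 and 0.246 for Scg2.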

How the results depend on the processing

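The count of genes called between 3 h and dark was 18 to 20 with another pseudocount, another filter, median-of-ratios scaling or genes at 0 in single libraries kept, 443 with the replicate block, 8 with the 2 groups alone and 623 with the 2 groups and the block. Leaving out 1 library gave 9 to 14, and leaving out number 1, 2 or 3 with the block gave 235, 233 and 124. The blocked calls kept in all 3 of those omissions were 93, of which 91 were higher and 2 lower. For 3 h against 1 h the count of 12 became 266 with the block, 6 with a pseudocount of 0.1, 6 with the 2 groups alone and 272 with these and the block, 0 to 2 without 1 library and 67 to 134 without 1 number. For 7.5 h against 3 h the count of 2 became 95 with the block, 4 with median-of-ratios scaling, 1 with the 2 groups alone and 93 with these and the block, 2 without each library and 29, 70 and 39 without number 1, 2 or 3. For Gad2 minus Emx the count of 6 became 101 with the block, 1 with these groups alone and 402 with these and the block, 4 to 10 without 1 library and 24 to 70 without 1 number. For Gad2 minus the mean of PV, SST and VIP it was 0, but 4 with genes at 0 in single libraries kept and 0 to 1 in the omissions. The cause of these changes was not tested. Changes of sign among the named genes were confined to Pnoc, Atp5j, Pvalb and Sst, all uncalled without the block. Over the omissions of 1 library the log2 change ran from -0.00537 to 0.536 for Pnoc, -0.077 to 0.451 for Atp5j, -0.322 to 0.404 for Pvalb (each below 0 without light replicate 3) and -0.0584 to 0.0755 for Sst. Sst was also 0.0031 with median-of-ratios scaling and 0.112 with the block without number 2. The edgeR fits with and without the block were not run. Fosl1 was at 0 in all 3 dark libraries and has no fold. Whether depth has a part in this was not tested.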
